A study of Mus musculus with 9 samples.

Results

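The comparison described here sets left ventricles of delta-sarcoglycan knockout mice (Sgcd KO) against those of wild-type mice (WT), over both treatments of a crossed design. All 9 libraries of the study enter it, and the group of each was taken from its title. The 5 KO libraries are 2 on vehicle and 3 on ifetroban, and the 4 WT libraries are 2 on vehicle and 2 on ifetroban. All mice were on a C57BL/6 background and were killed at 6 months of age. Vehicle mice drank plain water from weaning, and treated mice drank water that delivered 25 mg/kg/day of ifetroban, which blocks the thromboxane-prostanoid (TP) receptor. Every group also had running wheels from time to time, so exercise is shared by KO and WT. The 2 genotypes are therefore compared in exercised mice only, with treatment as a term of the model.

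Delta-sarcoglycan is a small membrane protein of striated and smooth muscle. With the other sarcoglycans it sits beside dystroglycan and dystrophin, in a complex that ties the cytoskeleton of the muscle cell to the matrix around it and steadies the membrane during contraction. Loss of the complex is known to let the membrane tear under load. Macrophages clear dead muscle cells, and fibroblasts and collagen take their place. Genes that heart muscle cells switch on under strain, genes of matrix-producing fibroblasts and genes of macrophages are the groups followed below.

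Levels are given as CPM, a gene's reads per 1000000 of the library's scaled total. Changes are log2 differences, KO minus WT, with the standard error (SE), from edgeR's quasi-likelihood test with Benjamini-Hochberg adjustment over 15549 genes, and a gene past the threshold has an adjusted p under 0.05. CPM is not divided by gene length, so levels are compared between libraries and not between genes. The labels do not say that replicates were separate animals, so p-values measure only the spread between these samples, which may be technical. RNA came from whole ventricle tissue, and in such bulk samples fewer cells of a type and less RNA per cell cannot be told apart. Depth was 21510263 to 30182955 counts per library.

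Doubts about 2 libraries and a split of all 9 come before the results. Sgcd itself (mm10 chr11:46896253-47988969, minus strand, protein-coding) was at 8.36, 20.9, 23.7 and 23.5 CPM in the WT libraries, vehicle first. The KO libraries had 9.64, 8.63, 7.30, 12.9 and 13.3 CPM, again with vehicle first. The library labelled WT vehicle replicate 1 lay inside the KO range, and the other 3 WT libraries lay above every KO library. The fitted change was -0.90 ± 0.25 (SE) and did not pass the threshold (edgeR, adjusted p = 0.101, 5 KO against 4 WT). Without WT vehicle replicate 1 it was -1.10, which passed (adjusted p = 0.0103). No source used here names the exons that were deleted or says how the count treats them, so Sgcd does not check the genotype labels. The second doubt is KO ifetroban replicate 1, whose title and source name give ifetroban and whose treatment characteristic gives vehicle. It was analysed as ifetroban, and its genotype is the same under either label. Finally, longer transcripts ran below their average over libraries in 4 libraries (WT vehicle replicate 1, both KO vehicle libraries and KO ifetroban replicate 1) and above it in the other 5. Spearman's rho between transcript length and the deviation, across 13051 protein-coding genes of a library, was -0.52 to -0.40 in the former and 0.38 to 0.43 in the latter, called negative-slope and positive-slope libraries here. Negative slopes were thus found in 1 of 4 WT and 3 of 5 KO libraries. Sgcd also followed these sets, at 7.30 to 9.64 CPM in the negative-slope and 12.9 to 23.7 CPM in the positive-slope libraries. Whether the low Sgcd level of WT vehicle replicate 1 goes with its slope or its label was not tested.

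The KO ventricle differed from WT mainly by higher expression. Of the 15549 genes, 363 passed the threshold (2.33%), with 321 higher (2.06%) and 42 lower (0.270%) in KO. The median change was 0.97 among the genes that rose and -0.60 among those that fell, against -0.02 over all genes tested. A change over 2-fold was reached by 157 rises and 7 falls. In 349 of the 363 genes the 5 KO and 4 WT libraries did not overlap (310 rises and 39 falls). Of all genes tested, 4.62% had every KO library above every WT library and 2.38% had every one below. At an unadjusted p under 0.05 there were 2496 genes.

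**Figure D1:**
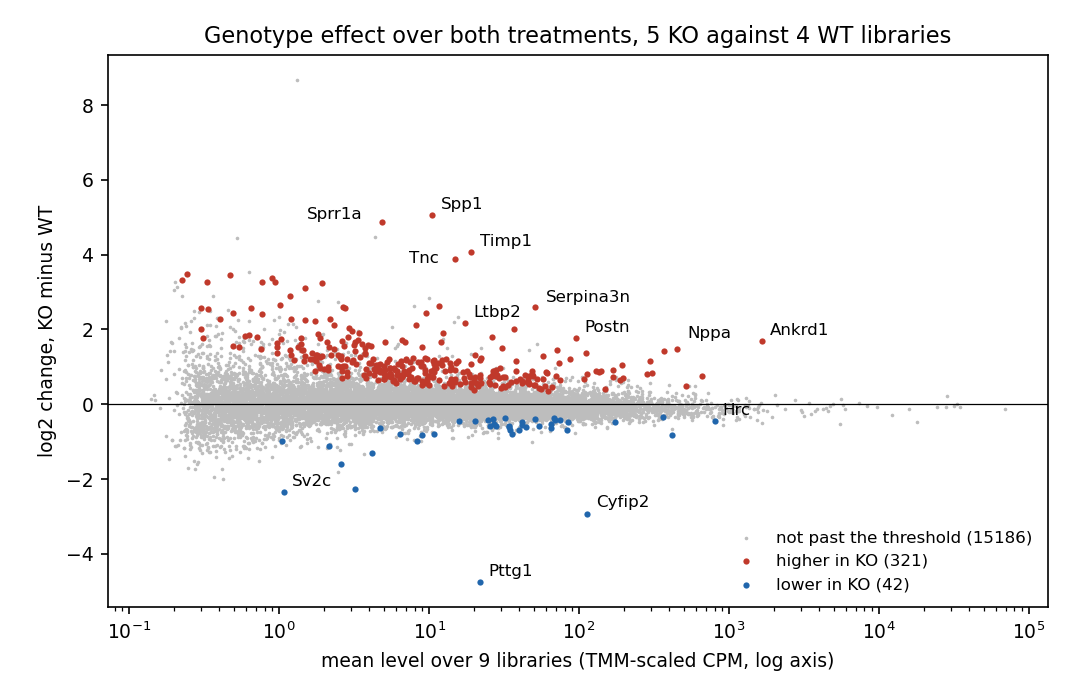
Genotype change of each tested gene (y axis, log2 difference KO minus WT over both treatments) against its mean level over 9 libraries (x axis, CPM, log axis). Red points are the 321 genes higher in KO, blue points the 42 lower in KO and grey points the rest, and the red points lie both more numerous and further from 0 than the blue ones, with Pttg1 and Cyfip2 as the farthest falls.

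The count rested on single libraries. With each library left out in turn, between 51 genes (without WT ifetroban replicate 2) and 475 genes (without WT vehicle replicate 1) passed, and the count was 58 without KO vehicle replicate 1, 149 without WT ifetroban replicate 1 and 175 without WT vehicle replicate 2. It was 228 without KO vehicle replicate 2 and 228 without KO ifetroban replicate 2. A core of 41 genes, 37 rises and 4 falls, passed in all 9 of these fits. With both libraries in doubt left out together, 535 genes passed, 301 of the 363 among them. With the slope set as a term in the model 472 genes passed, 285 of the 363 among them, and rises were 76.3% of the calls against 88.4% without that term.

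Regulatory sequence was looked at first for 4 rises and 2 falls, those with the smallest adjusted p among the named genes with a promoter used here. The promoters of Lox, Ctgf and Loxl1, whose adjusted p was also small, were not used here. RefSeq promoter entries (GRCm38.p6, the build of mm10) were searched on both strands, over the 250 bases before the gene's start in RefSeq. The motifs were the M-CAT element CATTCC, the AP-1 element TGANTCA, the SMAD box GTCTAGAC and the E-box CANNTG. For Lgals3, Pttg1 and Cyfip2 this window lies inside the gene as deposited. GENCODE M21 annotates 47, 195 and 118 of its bases as exon for these genes, and 167 for Tgfb2. Among Ankrd1, Serpina3n, Tgfb2, Lgals3, Pttg1 and Cyfip2, only Ankrd1 held M-CAT elements and none held an AP-1 element or a SMAD box. The 2 M-CAT matches of Ankrd1, on the opposite strand of the gene, begin 210 and 123 bases before its start, at chr19:36120039-36120064 and chr19:36119952-36119977 with 10 flanking bases on each side (minus strand, as read 5′ to 3′). Both lie before the start of the gene as deposited, but GENCODE M21 annotates all 250 bases of this window as exon of a longer Ankrd1 transcript. They are shown because Ankrd1 had the smallest adjusted p of all rises, and capitals mark the element in the gene's reading direction.
Ankrd1 match at -210: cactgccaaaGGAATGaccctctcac
Ankrd1 match at -123: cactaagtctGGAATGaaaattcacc
An M-CAT element was held by 12.6% of 32851 promoter windows of the same length, an AP-1 element by 6.75%, a SMAD box by 0.167% and an E-box by 66.2%. The promoter of Serpina3n (chr12:104406458-104406707, plus strand) is shown because it is the window of the second of these 4 rises and holds no match to any of the 4 motifs.
Serpina3n promoter: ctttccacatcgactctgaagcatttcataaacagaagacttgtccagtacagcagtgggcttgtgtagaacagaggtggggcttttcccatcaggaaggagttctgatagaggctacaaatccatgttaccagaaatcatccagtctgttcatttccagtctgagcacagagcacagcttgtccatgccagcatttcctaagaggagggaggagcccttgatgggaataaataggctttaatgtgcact
A match is a description of the letters and not a bound site, and a window without a match says nothing about a factor.

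Among 21 tested cardiac stress and fetal genes, 5 rose (Ankrd1, Gdf15, Nppb, Nppa and Rcan1) and 1 fell (Myh7b), with a median of 0.25, and the rises numbered 3 without WT ifetroban replicate 1, without KO vehicle replicate 1 or without both libraries in doubt. Ankrd1 (mm10 chr19:36111965-36119844), which encodes a titin-binding repeat protein that heart muscle cells induce under stretch, was at 833 and 634 CPM in WT vehicle and 809 and 678 CPM in WT ifetroban. In KO it was at 2749 and 2550 CPM on vehicle and at 2561, 2069 and 1984 CPM on ifetroban. Every KO library was more than 1000 CPM above every WT library, and the change was 1.70 ± 0.13 (SE; edgeR, adjusted p = 0.000324). Nppb, the gene of the B-type natriuretic peptide that the strained ventricle releases, was at 185, 205, 129 and 244 CPM in WT and at 632, 482, 593, 480 and 347 CPM in KO, in the order of the groups above. The genotypes did not overlap, at 1.42 ± 0.21 (SE; edgeR, adjusted p = 0.00901), and the adjusted p was 0.0694 without both libraries in doubt. Gdf15, a secreted stress signal, was at 1.09 to 1.28 CPM in WT and at 2.22 to 5.88 CPM in KO, with KO ifetroban replicate 3 lowest of the KO libraries. Its change was 1.96 ± 0.26 (SE; edgeR, adjusted p = 0.00689).

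Nppa, the atrial natriuretic peptide gene that is re-expressed in strained ventricle, was at 213 and 202 CPM in WT vehicle and 202 and 272 CPM in WT ifetroban. In KO it was at 905 and 863 CPM on vehicle and at 705, 363 and 349 CPM on ifetroban. The KO libraries were all above WT but fell into a higher set of 3 and a lower set of 2, and the 3 high ones are the KO libraries with a negative length slope. The change was 1.48 ± 0.27 (SE; edgeR, adjusted p = 0.0217), and it lost the threshold in 5 of 9 leave-one-out fits, at an adjusted p of 0.0571 to 0.0745 (without WT vehicle replicate 1 or 2, WT ifetroban replicate 1, KO vehicle replicate 1 or KO ifetroban replicate 1). Without both libraries in doubt its adjusted p was 0.192. Myh7, the slow myosin heavy chain of the fetal mouse heart, was at 158 to 368 CPM in WT and 192 to 667 CPM in KO with overlap, and its change of 0.56 ± 0.41 (SE) did not pass (edgeR, adjusted p = 0.532). Myh7b, a related slow-type myosin gene, was at 37.4 to 60.3 CPM in WT and 20.8 to 29.2 CPM in KO without overlap, a change of -0.79 ± 0.15 (SE; edgeR, adjusted p = 0.0269). Its call was lost in 5 leave-one-out fits (adjusted p from 0.0524 to 0.132), those without WT vehicle replicate 2 or any WT ifetroban or KO vehicle library.

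**Figure D2:**
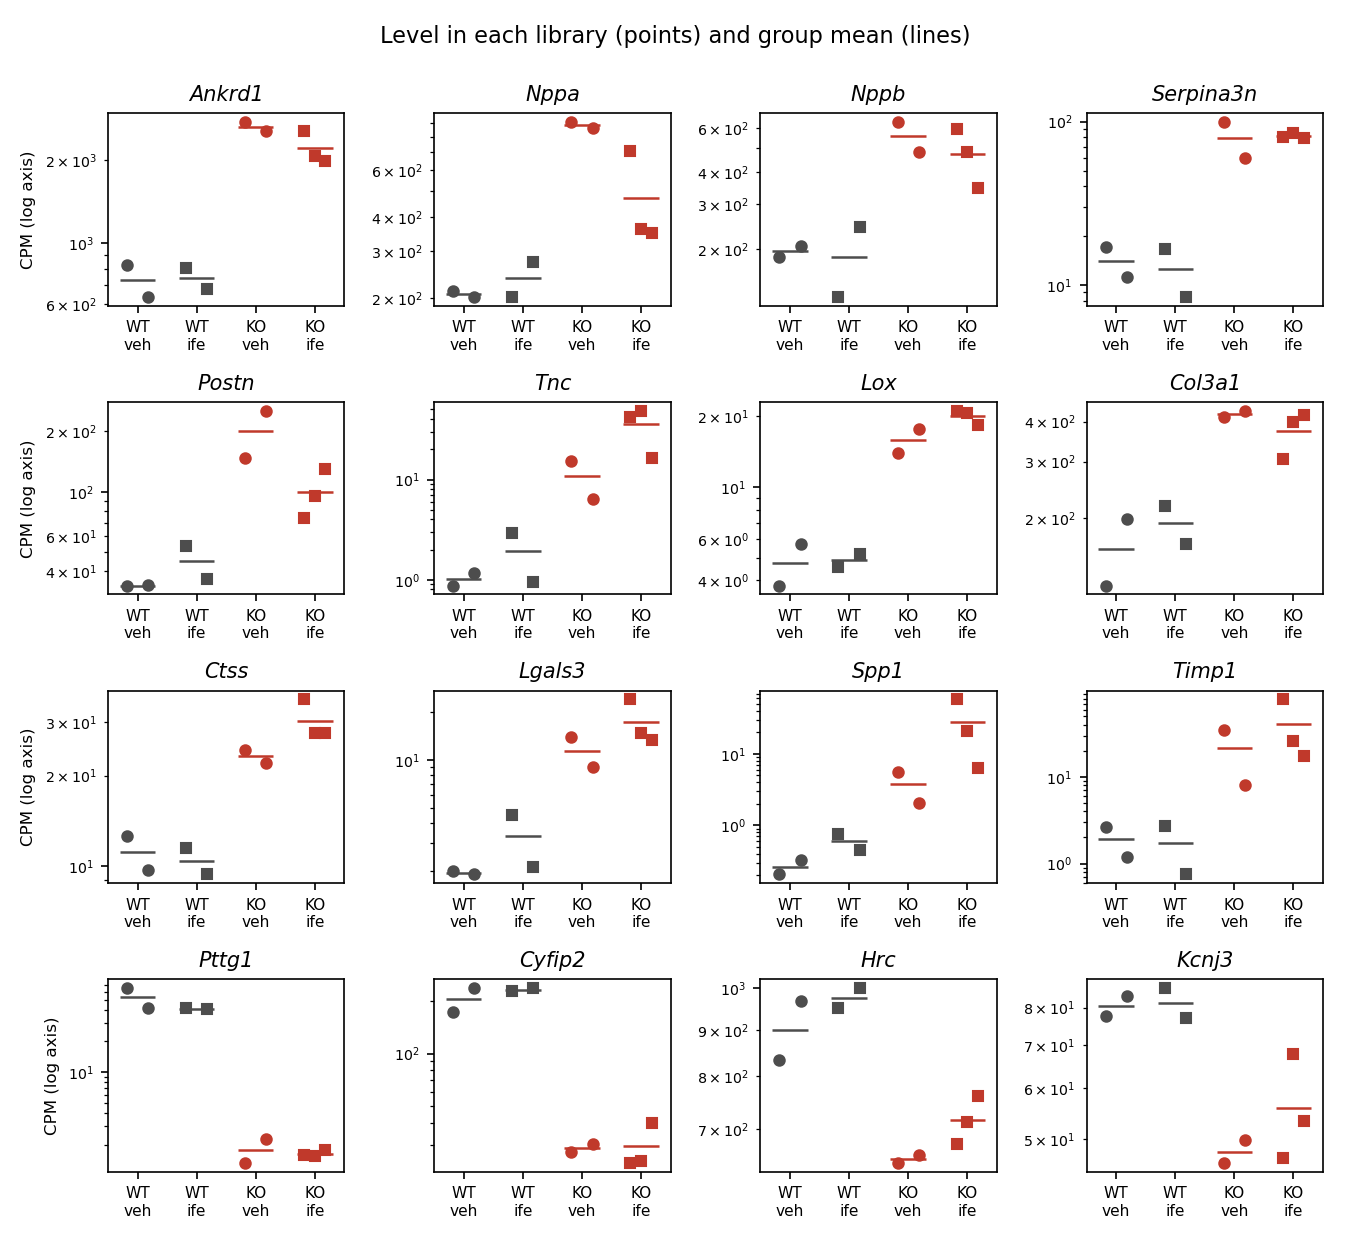
Level of 16 genes in each library (y axis, CPM, log axis, scaled per panel), by group (x axis, WT or KO on vehicle, veh, or ifetroban, ife). Points are libraries in order of replicate number and lines are group means, and in all 16 panels the red KO points lie wholly above or wholly below the grey WT points, with Nppa split into a higher and a lower set among KO.

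The muscle cell's own structural genes gave few or no calls. Over all genes 2.33% passed, so 0 calls in lists of this size is near that share. No member passed among 24 sarcomere genes (median -0.12), 17 intercalated disc genes (median -0.13) or 21 genes of the dystrophin-glycoprotein complex (median -0.20), Sgcd included. Without WT vehicle replicate 1, Sgcd and 1 intercalated disc gene fell. In the complex, changes ranged from -0.90 for Sgcd to 0.32. Without passing, 3 of the 21 members had all KO libraries below WT, against 2.38% of all genes tested. These were Sgca, Sgcb and Sspn, which are named here after their values were seen and encode alpha-sarcoglycan, beta-sarcoglycan and sarcospan, partners of delta-sarcoglycan in the membrane. Sgca was at 86.5 to 94 CPM in WT and 66.2 to 83.6 CPM in KO (change -0.24 ± 0.09 SE; edgeR, adjusted p = 0.212). Sgcb was at 140 to 152 CPM in WT and 118 to 139 CPM in KO (change -0.20 ± 0.08 SE; edgeR, adjusted p = 0.228). Of 29 stretch, costamere and Z-disc genes, 3 rose (Ankrd1, Synpo2l and Ankrd23), and of 25 membrane repair and annexin genes, 2 rose (Anxa1 and Anxa2). These shares were 10.3% and 8%, against 2.06% of all genes. Anxa2, whose protein binds injured membrane, was at 37.7 to 48.5 CPM in WT and 60.02 to 109 CPM in KO, and lost the threshold in 6 leave-one-out fits (adjusted p from 0.0579 to 0.169). Both counts fell to 1 or 0 without WT vehicle replicate 2, either WT ifetroban library or either KO vehicle library, the first also without KO ifetroban replicate 2, and both were 5 without both libraries in doubt.

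Calcium handling and ion channel genes were the list with the lowest median, -0.27 over 42 members, and 2 of them fell while none rose. Hrc, the histidine-rich calcium-binding protein of the sarcoplasmic reticulum, was at 833 CPM or more in all WT libraries and at 643, 657, 674, 712 and 761 CPM in KO. The change was small and free of overlap, -0.46 ± 0.08 (SE; edgeR, adjusted p = 0.0204). Kcnj3, a subunit of the potassium channel opened by acetylcholine, was at 77.8, 83.4, 85.8 and 77.0 CPM in WT and at 45.9, 49.8, 46.8, 67.7 and 53.3 CPM in KO. Its change was -0.64 ± 0.11 (SE; edgeR, adjusted p = 0.0217). Each gene's call was lost in the 5 leave-one-out fits without WT vehicle replicate 2, a WT ifetroban library or a KO vehicle library (adjusted p from 0.052 to 0.106 for Hrc and from 0.0509 to 0.0992 for Kcnj3). The list had 4 falls without WT vehicle replicate 1 and 5 without both libraries in doubt.

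Energy metabolism gave no calls in 43 fatty acid uptake and oxidation genes (median -0.14) or in 68 nuclear-encoded respiratory chain genes (median -0.03), and 1 of 32 glucose genes rose (Pfkp, platelet-type phosphofructokinase), a share near that over all genes. Pfkp lost the threshold in 6 of the 9 leave-one-out fits (adjusted p from 0.0503 to 0.165), all but those without WT vehicle replicate 1 or KO ifetroban replicate 1 or 3, and 2 glucose genes fell without WT vehicle replicate 1. For lists of this size 0 calls is near the 2.33% over all genes. In the respiratory chain the members' changes lay between -0.30 and 0.08. Every KO library lay below every WT library in 7 fatty acid, 3 respiratory chain and 7 glucose genes, against 2.38% of all genes. Every one lay above in 1, 0 and 2 of them, against 4.62% of all genes. Of the 43 fatty acid estimates, 7 were above 0.

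Extracellular matrix genes rose in several classes. In the list of basement membrane and other network collagens and laminins 1 of 22 passed (Col8a1, median -0.08), a share near that over all genes, and none passed in 7 of the 9 leave-one-out fits, all but those without WT ifetroban replicate 1 or KO ifetroban replicate 2. Of 11 fibrillar and fibril-associated collagens, 4 rose (median 0.72). Col3a1, the chain of type III collagen, was at 122, 198, 218 and 166 CPM in WT and at 413, 432, 306, 399 and 420 CPM in KO. The genotypes were apart in all libraries, at 1.16 ± 0.17 (SE; edgeR, adjusted p = 0.00968). Col1a1 and Col5a2, chains of type I and type V collagen, changed by 0.91 ± 0.13 and 0.88 ± 0.11 (SE; edgeR, adjusted p = 0.00901 and 0.00689), and Col1a2 was the other rise. Without WT ifetroban replicate 2 both Col1a1 and Col3a1 had an adjusted p of 0.0578, and 1 collagen passed in place of 4, while 7 passed without KO ifetroban replicate 1.

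Enzymes that cross-link collagen rose too. Of 24 collagen processing genes 6 rose (median 0.31). Lox, lysyl oxidase, which joins collagen and elastin fibres, was at 3.8, 5.71, 4.56 and 5.20 CPM in WT and at 14, 17.7, 21.1, 20.7 and 18.4 CPM in KO. The lowest KO library was more than 2-fold above the highest WT library, and the change was 1.90 ± 0.15 (SE; edgeR, adjusted p = 0.000331). Loxl1, a lysyl oxidase relative needed for elastic fibres, was at 38.8 to 46.3 CPM in WT and 70.9 to 81.8 CPM in KO (0.85 ± 0.08 SE; edgeR, adjusted p = 0.0018). Pcolce, P4ha3, Loxl2 and Loxl4 also rose. The count was 2 without WT ifetroban replicate 2, 2 without KO vehicle replicate 1, and 4 without WT ifetroban replicate 1, KO ifetroban replicate 2 or 3 or KO vehicle replicate 2, and Lox and Loxl1 passed in all 9 of these fits.

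Matricellular proteins, which signal from the matrix to cells, gave 7 rises among 22 (median 1.06). Tnc, tenascin C of healing tissue, was at 0.872, 1.17, 2.91 and 0.958 CPM in WT and at 15.4, 6.38, 41.7, 48.4 and 16.5 CPM in KO. KO libraries differed among themselves by more than 7-fold and yet all lay above WT, with a change of 3.88 ± 0.47 (SE; edgeR, adjusted p = 0.00576). Without both libraries in doubt the adjusted p was 0.0897 for Tnc, 0.104 for Postn and 0.0548 for Spp1. Ctgf, connective tissue growth factor, was at 46.6 to 67.2 CPM in WT and 133 to 197 CPM in KO (1.38 ± 0.13 SE; edgeR, adjusted p = 0.00154). Postn, periostin of activated fibroblasts, was at 34.0, 34.1, 53.8 and 36.7 CPM in WT and at 148, 253, 74.2, 95.2 and 130 CPM in KO. KO vehicle was the higher KO group, and the change was 1.77 ± 0.31 (SE; edgeR, adjusted p = 0.0191), lost at an adjusted p of 0.054 to 0.077 without either WT vehicle library, WT ifetroban replicate 2 or KO vehicle replicate 1. Spp1, osteopontin, had the largest change of the named genes, 5.05 ± 0.85 (SE; edgeR, adjusted p = 0.0211), from 0.205 to 0.767 CPM in WT to 2.05 to 58.0 CPM in KO. KO ifetroban replicate 1 was the highest library, and the call was lost without WT vehicle replicate 2, either WT ifetroban library or KO vehicle replicate 1 (adjusted p from 0.0594 to 0.102). The count of 7 was 3 without WT vehicle replicate 2, WT ifetroban replicate 2 or KO vehicle replicate 1, 4 without WT ifetroban replicate 1, and 4 without both libraries in doubt.

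Elastic fibre and proteoglycan genes gave 6 rises among 21 (median 0.66), led by Vcan, the large proteoglycan versican, and Fn1, fibronectin. Vcan was at 16.6 to 23.1 CPM in WT and 31.8 to 41 CPM in KO (0.92 ± 0.11 SE; edgeR, adjusted p = 0.00593). The count was 1 without WT ifetroban replicate 2 and 3 without KO vehicle replicate 1. Of 30 metalloproteinases and inhibitors 6 rose (median 0.35), a count that was 1 without WT ifetroban replicate 2 or KO vehicle replicate 1 and 2 without WT ifetroban replicate 1. Mmp3, stromelysin, was at 2.75 to 3.07 CPM in WT and 5.42 to 12.4 CPM in KO (1.71 ± 0.22 SE; edgeR, adjusted p = 0.00664). Timp1, an inhibitor of these enzymes, was at 2.67, 1.17, 2.71 and 0.749 CPM in WT and at 35, 8.07, 78.4, 26.1 and 17.2 CPM in KO. All KO libraries were above all WT libraries, by 4.08 ± 0.71 (SE; edgeR, adjusted p = 0.0231), and the call was lost without WT vehicle replicate 2, either WT ifetroban library or KO vehicle replicate 1 (adjusted p from 0.065 to 0.0992) or without both libraries in doubt (0.105).

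Of 29 TGF-beta ligands, receptors and latent binding proteins, 3 rose and none fell (median 0.14), and they were Tgfb2, Ltbp2 and Gdf15. Tgfb2 (mm10 chr1:186622792-186705989, minus strand), a ligand that drives matrix production, was at 8.98, 8.79, 9.37 and 9.58 CPM in WT and at 19.9, 21.5, 24.4, 19.2 and 17.6 CPM in KO. WT libraries lay within 1 CPM of each other and the lowest KO library was well above them, at 1.16 ± 0.11 (SE; edgeR, adjusted p = 0.00167). The other ligands were named after their values were seen, with Tgfb1 at 0.29 ± 0.10 and Tgfb3 at 0.52 ± 0.13 (SE; edgeR, adjusted p = 0.172 and 0.0642). Ltbp2, a matrix protein related to the latent TGF-beta binding proteins, was at 2.56 to 8.44 CPM in WT and 15.5 to 40.4 CPM in KO, a change of 2.17 ± 0.36 (SE; edgeR, adjusted p = 0.0181). It lost the threshold without WT vehicle replicate 2, WT ifetroban replicate 2 or KO vehicle replicate 1 (adjusted p from 0.0552 to 0.0829) or without both libraries in doubt (0.0808). Of 13 Wnt genes, 2 secreted antagonists rose, Sfrp2 and Frzb (median 0.19), and neither passed without any one WT vehicle or KO vehicle library or without WT ifetroban replicate 2. Of the pair, 1 passed without WT ifetroban replicate 1 or KO ifetroban replicate 3, and Frzb had an adjusted p of 0.0958 without both libraries in doubt.

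Fibroblast markers and activation genes gave 13 rises among 32 (median 0.52), several of them shared with the matrix lists. The defining markers Pdgfra, Tcf21 and Dcn did not pass, at 0.19, 0.26 and 0.34, and the fourth, Col1a1, rose. The summed level of the 4 was 480 to 513 CPM in WT and 571 to 807 CPM in KO. Of the 4, Col1a1 alone was without overlap, at 89.8 to 134 CPM in WT and 175 to 235 CPM in KO. Pdgfra, Tcf21 and Dcn overlapped, with Dcn at 315 to 359 CPM in WT and 344 to 520 CPM in KO. The count was 1 without WT ifetroban replicate 2, 5 without KO vehicle replicate 1, 7 without WT vehicle replicate 2 and 8 without WT ifetroban replicate 1.

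**Figure D3:**
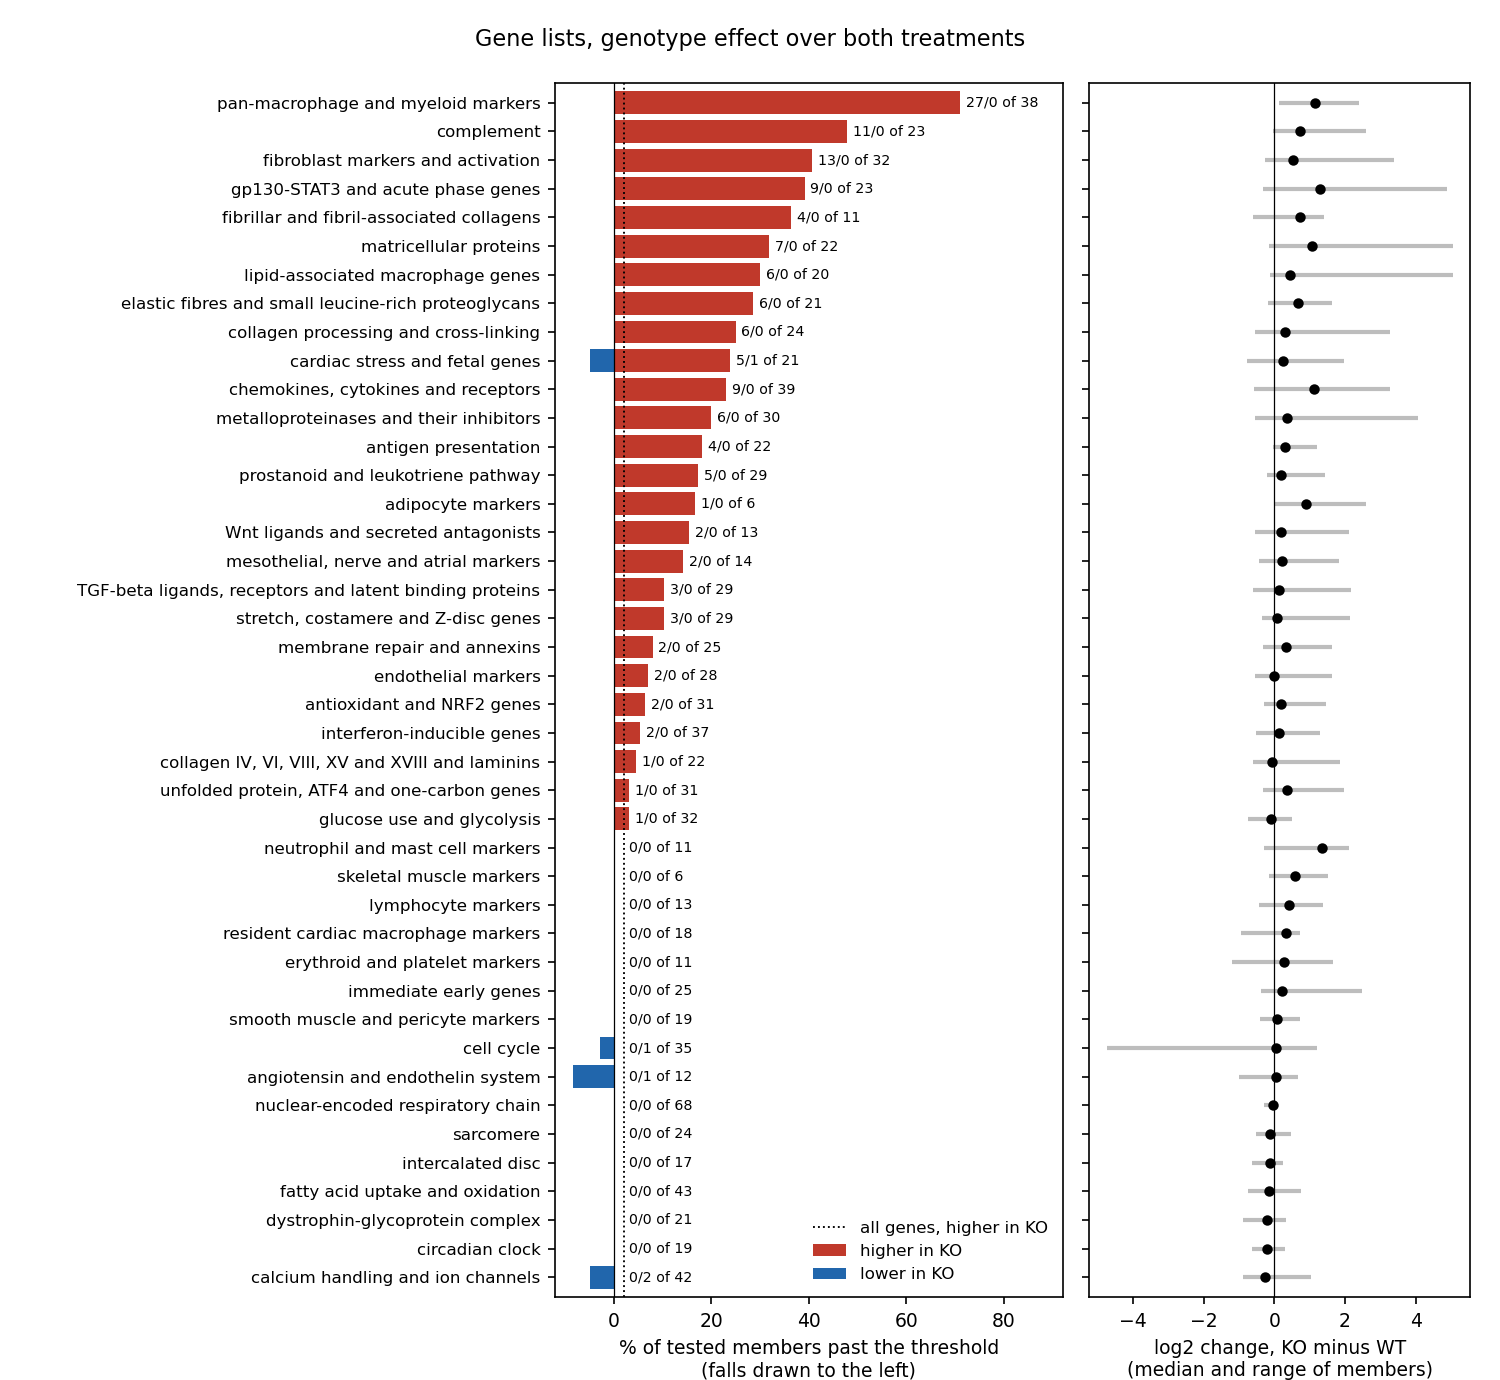
Share of the tested members of 42 gene lists past the threshold (left, percent, rises to the right and falls to the left, with counts of rises and falls of members tested) and the median and range of the members' log2 change, KO minus WT (right). The dotted line is the share of rises over all genes, 2.06%, and pan-macrophage markers have the longest bar with 27 of 38 members, while respiratory chain, sarcomere and fatty acid lists have none.

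Macrophage genes were the list with the largest share of rises. Of 38 pan-macrophage and myeloid markers 27 rose and none fell, the median was 1.14, and all 38 estimates were above 0. In 32 of the 38 every KO library lay above every WT library, against 4.62% of all genes. Ctss, the lysosomal protease cathepsin S, was at 12.6, 9.76, 11.5 and 9.41 CPM in WT and at 24.3, 22.1, 35.7, 27.6 and 27.7 CPM in KO. No KO library came near WT, and the change was 1.32 ± 0.15 (SE; edgeR, adjusted p = 0.00365). Ptprc, the pan-leukocyte phosphatase CD45, was at 5.54 to 7.35 CPM in WT and 10.2 to 13.3 CPM in KO (0.90 ± 0.12 SE; edgeR, adjusted p = 0.00689). Lcp1, an actin bundler of leukocytes, changed by 1.15 ± 0.14 (SE; edgeR, adjusted p = 0.00543). Lyz2 (macrophage lysozyme) rose too, with Lyz1, a near copy that could share its reads. The count was 6 without WT ifetroban replicate 2, 8 without KO vehicle replicate 1 and 17 without WT ifetroban replicate 1, and 10 and 7 in the negative-slope and positive-slope libraries alone.

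The defining macrophage markers Cd68, Adgre1, Csf1r and C1qa all rose, by 1.18, 0.68, 0.54 and 0.81, and their summed level was 76.6 to 96.3 CPM in WT and 135 to 157 CPM in KO without overlap. Resident cardiac macrophage markers gave 0 calls among 18, with a median of 0.32, and no member had its KO libraries wholly above or below WT. Without KO ifetroban replicate 1, 1 of them rose. Of that list Cd163, Lyve1, Timd4 and Mrc1, named after their values were seen, changed by -0.03, 0.28, 0.33 and 0.49. Of 20 lipid-associated macrophage genes 6 rose (median 0.43). Trem2, a lipid-sensing receptor, was at 1.54, 1.46, 1.66 and 1.17 CPM in WT and at 4.40, 5.18, 4.59, 3.40 and 5.25 CPM in KO. Every KO library lay above every WT library, at 1.65 ± 0.19 (SE; edgeR, adjusted p = 0.00404). Lgals3, galectin 3, was at 2.00, 1.90, 4.52 and 2.12 CPM in WT and at 13.8, 9.03, 24.0, 14.8 and 13.2 CPM in KO. WT ifetroban replicate 1 was the highest WT library and still below KO, and the change was 2.45 ± 0.26 (SE; edgeR, adjusted p = 0.00319). Apoe, apolipoprotein E, was at 188 to 233 CPM in WT and 299 to 445 CPM in KO (0.84 ± 0.11 SE; edgeR, adjusted p = 0.00689). The lipid-associated count was 3 without KO vehicle replicate 1 or either WT ifetroban library.

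Among the other immune lists, complement gave 11 rises among 23 (median 0.72), the genes of C1q, C4b, Cfb, Cfd, Serping1 and the receptors C3ar1, C5ar1 and Itgam with Itgb2. Lists share members, so their counts are not separate. C1qa, C1qb, C1qc and Itgam are also pan-macrophage rises, as are Csf2rb and Ccr2 of the chemokine list and Cybb of the antioxidant list. Cfd counts in both the complement and the adipocyte list, and Gdf15 in the cardiac stress, TGF-beta and ATF4 lists. Spp1 and Mmp12 of the lipid-associated list and Timp1 of the acute phase list are also matrix rises. C3ar1, the receptor of the C3a fragment, was at 5.16 to 8.14 CPM in WT and 13.6 to 16.0 CPM in KO (1.11 ± 0.15 SE; edgeR, adjusted p = 0.00689). The complement count was 2 without WT ifetroban replicate 2, 1 without KO vehicle replicate 1, 6 without WT ifetroban replicate 1 or WT vehicle replicate 2, 7 without KO vehicle replicate 2, and 17 without both libraries in doubt. C4b could share reads with its near copy C4a. Chemokine, cytokine and receptor genes gave 9 rises among 39 (median 1.11), and none passed without WT ifetroban replicate 2 or KO vehicle replicate 1, while 4 passed without WT ifetroban replicate 1 or KO ifetroban replicate 2 and 3 without WT vehicle replicate 2. Of 22 antigen presentation genes 4 rose, all of class II (H2-Aa, H2-Ab1, H2-DMb1 and Cd74, median 0.30), and class II genes of one family could share reads. Their count was 0 without WT ifetroban replicate 2 or KO vehicle replicate 1 and 1 without WT ifetroban replicate 1. Cd74, the invariant chain, was at 44.1 to 58.9 CPM in WT and 66.0 to 104 CPM in KO (0.76 ± 0.14 SE; edgeR, adjusted p = 0.0217), lost without either WT ifetroban library or KO vehicle replicate 1 (adjusted p from 0.0509 to 0.102). Of 37 interferon-inducible genes 2 rose (median 0.13), or 5.41% against 2.06% of all genes, and of 13 lymphocyte markers none (median 0.41). The interferon count was 0 without WT vehicle replicate 2, WT ifetroban replicate 2 or KO vehicle replicate 1, and 1 without WT ifetroban replicate 1, KO vehicle replicate 2 or KO ifetroban replicate 3. Neutrophil and mast cell markers had a high median, 1.34 over 11, with 0 calls, or 3 rises without WT vehicle replicate 1. The summed level of S100a8, S100a9 and Csf3r was 1.5 to 7.64 CPM in WT and 5.69 to 18.6 CPM in KO with overlap.

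Genes of the gp130-STAT3 and acute phase group gave 9 rises among 23, with the second highest median of all lists, 1.3. Serpina3n (mm10 chr12:104406729-104414329, plus strand), a secreted protease inhibitor, was at 17.0, 11.1, 16.6 and 8.41 CPM in WT and at 99.1, 59.5, 80.8, 85.0 and 79.7 CPM in KO. The lowest KO library was more than 3-fold above the highest WT library, and the change was 2.61 ± 0.23 (SE; edgeR, adjusted p = 0.000828). Serpina3m also rose, and members of this family could share reads. Hp, haptoglobin, was at 0.375 to 1.13 CPM in WT and 3.05 to 5.94 CPM in KO (2.56 ± 0.32 SE; edgeR, adjusted p = 0.00593). Sprr1a, a small proline-rich protein induced in stressed heart muscle cells, was at 0.125 to 0.363 CPM in WT and at 5.43, 2.37, 23.1, 7.34 and 4.20 CPM in KO. KO ifetroban replicate 1 stood highest, the change was 4.89 ± 0.70 (SE; edgeR, adjusted p = 0.00901), and the adjusted p was 0.0578 without WT ifetroban replicate 2. The count of 9 was 4 without either WT ifetroban library or KO vehicle replicate 1, 5 without WT vehicle replicate 2, 6 without KO ifetroban replicate 2 or 3, and 6 without both libraries in doubt.

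The pathway of the drug's target was followed on its own. Of 29 prostanoid and leukotriene genes 5 rose and none fell (median 0.18). They were Alox5ap and Tbxas1, which feed leukotriene and thromboxane synthesis, Pla2g4a, which releases arachidonic acid, Ptgis, which makes prostacyclin, and Slco2a1, a prostaglandin transporter. Tbxas1, thromboxane synthase, was at 1.44, 2.31, 1.66 and 1.58 CPM in WT and at 3.57, 3.13, 4.21, 3.18 and 3.79 CPM in KO. The genotypes did not overlap, at 1.03 ± 0.19 (SE; edgeR, adjusted p = 0.0231), and the call was lost without either WT ifetroban library or KO vehicle replicate 1 (adjusted p from 0.0852 to 0.112). Tbxa2r, the TP receptor itself, was at 2.41, 3.12, 3.43 and 1.87 CPM in WT and at 5.24, 5.06, 3.23, 1.81 and 3.79 CPM in KO. KO vehicle lay above WT and KO ifetroban overlapped it, and the change of 0.49 ± 0.27 (SE) did not pass (edgeR, adjusted p = 0.403). The cyclooxygenase genes Ptgs1 and Ptgs2, named after their values were seen, did not pass, at 0.21 and 1.44. The count of 5 was 0 without WT ifetroban replicate 2 or KO vehicle replicate 1, 2 without WT ifetroban replicate 1, KO vehicle replicate 2 or KO ifetroban replicate 3, and 3 without WT vehicle replicate 2 or KO ifetroban replicate 1.

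Markers of the other cells in a ventricle were measured beside these lists. None of the 8 heart muscle markers, the 4 endothelial or the 4 smooth muscle and pericyte markers passed. The summed heart muscle level was 48735 to 56743 CPM in WT and 40754 to 50403 CPM in KO. Of its members, Myh6, Ttn and Ryr2 were lower in every negative-slope library than in any positive-slope one, with Ttn at 3281 to 4283 against 6212 to 7429 CPM. Actc1 went the other way and the rest overlapped between the sets. The part of slope in this sum was not tested. Of 28 genes in the longer endothelial list 2 rose (7.14% against 2.06% of all genes), Plvap of fenestrated vessels and Icam1. The count was 1 without WT ifetroban replicate 2 or KO vehicle replicate 1. The atrial markers Myl4 and Myl7 were at or below 1.59 and 0.222 CPM in every library. Of 4 skeletal muscle markers, Myh1, Myh4 and Tnnt3 were near 0 in 8 libraries, while KO ifetroban replicate 3 had them at 8.15, 3.51 and 4.80 CPM. The fourth, Acta1, which heart muscle also expresses, was at 258 to 1090 CPM in WT and 161 to 1104 CPM in KO. The adipocyte markers Adipoq, Plin1 and Cfd summed to 0 to 0.486 CPM in WT and to 0.655 to 2.28 CPM in KO, with Adipoq at 0 in all WT libraries. Their part in the genotype changes was not tested.

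Genes that fell were few, and 3 of the 4 largest falls, the first 2 among them, lay close to Sgcd on chromosome 11. Pttg1 (mm10 chr11:43420250-43426251, minus strand), which encodes securin, the guard of chromosome separation, was at 64.8, 41.5, 41.4 and 40.8 CPM in WT and at 1.33, 2.25, 1.59, 1.56 and 1.78 CPM in KO. KO levels were a small fraction of WT in all libraries, at -4.76 ± 0.18 (SE; edgeR, adjusted p = 6.97e-07). Cyfip2 (chr11:46193850-46312859, minus strand), a partner of the actin regulator WAVE, was at 173, 237, 229 and 236 CPM in WT and at 27.4, 30.03, 23.5, 24.3 and 40.1 CPM in KO. Its change was -2.92 ± 0.17 (SE; edgeR, adjusted p = 3.22e-05). Gm12167 (chr11:46342287-46345020, plus strand), annotated as antisense, was at 4.56 to 7.85 CPM in WT and 0.477 to 2.05 CPM in KO (-2.26 ± 0.26 SE; edgeR, adjusted p = 0.00436), and as the counting strand is not given, its reads cannot be told apart from those of an overlapping gene. In WT vehicle replicate 1, all 3 genes lay above the KO range although Sgcd lay inside it. These genes start 3.47, 0.58 and 0.55 Mb below Sgcd. Within 10 Mb of Sgcd, 3 of 138 tested genes fell (2.17%) and 1 rose (Gpx3, 0.69 ± 0.12 SE; edgeR, adjusted p = 0.0185, lost without WT ifetroban replicate 2 or KO vehicle replicate 1), while 39 of 15411 other genes fell (0.253%). The median change within 10 Mb was -0.02, as over all genes. The parental strain of the targeted allele and its flanking sequence are likewise not named by any source used here, and whether the deletion or the neighbouring sequence goes with these falls cannot be told apart.

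**Figure D4:**
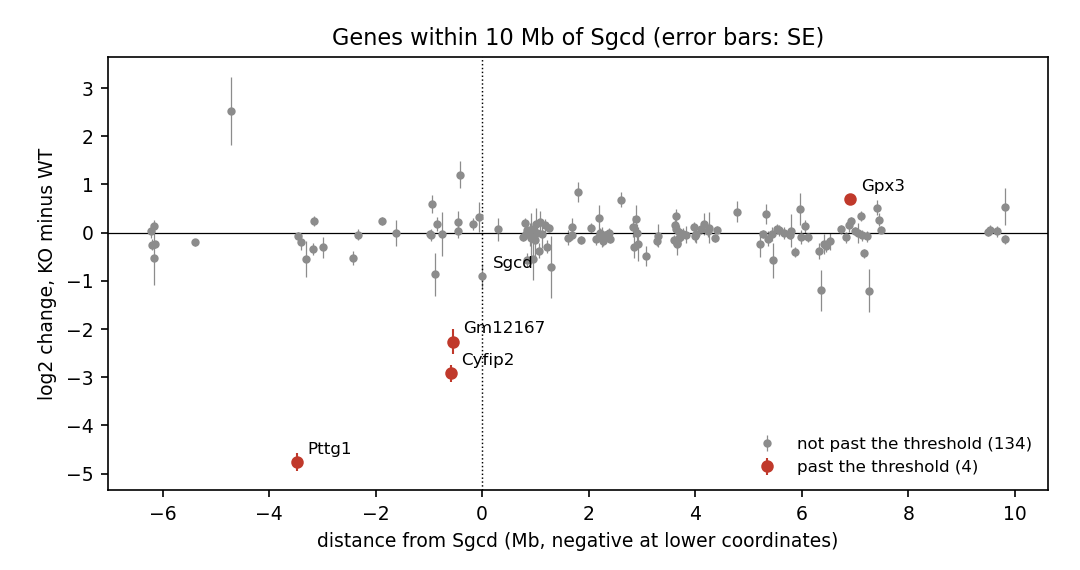
Genotype change of the 138 tested genes within 10 Mb of Sgcd (y axis, log2 difference KO minus WT, bars SE) by distance from Sgcd (x axis, Mb). Pttg1, Cyfip2 and Gm12167 stand at -4.76, -2.92 and -2.26 on the side of lower coordinates, Gpx3 stands above 0, and the other 134 points did not pass the threshold.

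Of the falls elsewhere, the largest was that of Sv2c, which was larger than that of Gm12167 and smaller than that of Cyfip2. Sv2c, a synaptic vesicle protein gene on chromosome 13, was at 1.08, 2.11, 2.10 and 2.46 CPM in WT and at 0.266 to 0.646 CPM in KO (-2.34 ± 0.31 SE; edgeR, adjusted p = 0.00689), and it passed in all leave-one-out fits, as did Pttg1, Cyfip2 and Gm12167. Clcn1, the muscle chloride channel, was at 5.05 to 8.02 CPM in WT and 1.94 to 3.43 CPM in KO (-1.30 ± 0.22 SE; edgeR, adjusted p = 0.0185). Its call was lost without WT ifetroban replicate 2 or either KO vehicle library (adjusted p from 0.0507 to 0.0852). Lrtm1, a leucine-rich repeat membrane protein gene, was at 423, 532, 573 and 659 CPM in WT and at 340, 301, 264, 317 and 328 CPM in KO. All KO libraries lay below WT, at -0.82 ± 0.12 (SE; edgeR, adjusted p = 0.0112), with an adjusted p of 0.0598 without WT ifetroban replicate 2. Mme, neprilysin, which cleaves natriuretic peptides and angiotensins, was at 9.03, 13.6, 13.4 and 10.1 CPM in WT and at 6.95, 4.46, 5.10, 7.25 and 5.25 CPM in KO. It was the sole call among 12 angiotensin and endothelin genes, at -0.99 ± 0.18 (SE; edgeR, adjusted p = 0.0231), and it did not pass without WT vehicle replicate 2 or without any one WT ifetroban or KO vehicle library (adjusted p from 0.0552 to 0.0892). Slc15a2, Bcl11b, Rgs7bp, Dpysl4, Tmem150c, Efnb3, P2ry1 and Armc2 also fell, by 0.69 to 1.59 on the log2 scale, and each lost the threshold in 1 to 6 of the 9 leave-one-out fits.

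Whether the genotype change itself differed between vehicle and ifetroban was asked with the interaction term. No gene passed (edgeR, 0 of 15549, or 0.00%, smallest adjusted p 0.999853, and 298 genes at an unadjusted p under 0.05, with 0 also by DESeq2 and limma-voom). The 298 genes are a smaller share than the 0.05 that unchanged genes would give with well-calibrated p-values. With the slope set as a term, 1106 genes were at an unadjusted p under 0.05 (edgeR) and 0 passed. In simulated counts of this design, the interaction test recovered 20 of 100 genes that differed by 1 and 78 of 100 that differed by 2 on the log2 scale. Those counts had no slope split, so this recovery need not hold for the real libraries. Both treatments entered the choice of the 363 genes, so their estimates per treatment are a description. The vehicle estimate was the larger in size for 152 of them (135 rises and 17 falls). Estimates under vehicle and ifetroban were 2.09 and 0.99 for Nppa, 2.56 and 1.14 for Postn, and 3.17 and 1.44 for Ltbp2. They were 1.85 and 1.57 for Ankrd1, 1.73 and 2.04 for Lox, and -4.89 and -4.64 for Pttg1. The smallest interaction p-values were those of F7, Frzb and Thbs4. Frzb, a secreted Wnt antagonist, was at 3.23 and 3.48 CPM in WT vehicle, 7.91 and 5.95 CPM in WT ifetroban, while KO had 12.3 and 13.5 CPM on vehicle and 9.60, 8.64 and 11.7 CPM on ifetroban. Its genotype estimate was 1.94 under vehicle and 0.52 under ifetroban, and Thbs4, a matricellular protein gene, had 2.33 and 1.15. F7 was at or below 0.484 CPM in every library. None of these differences between treatments passed after adjustment. Both KO vehicle libraries have a negative slope and both WT ifetroban libraries a positive one, so slope and treatment can be told apart only in part.

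**Figure D5:**
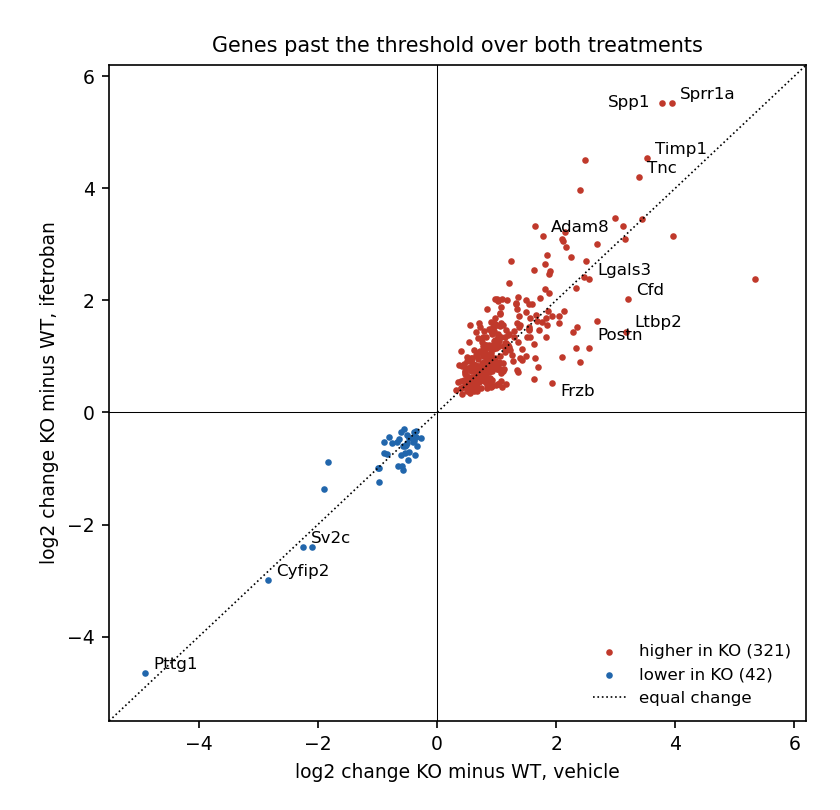
Genotype change under vehicle (x axis) against that under ifetroban (y axis), both log2 KO minus WT, for the 363 genes past the threshold over both treatments, red for rises and blue for falls, with a dotted line of equal change. All points lie in the lower left or upper right quadrant, and Postn, Ltbp2 and Frzb lie below the line while Spp1, Sprr1a and Adam8 lie above it.

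Values within the slope sets are given as a description, since the 363 genes were chosen on the same libraries and their signs within a set are largely fixed by that choice. In the 4 negative-slope libraries the lone WT library is WT vehicle replicate 1, one of the 2 in doubt, and with treatment in the model the spread comes from the 2 KO vehicle libraries only. Of the 363 genes, 93 passed there, 46 passed in the 5 positive-slope libraries (3 WT against 2 KO), and 22 passed in both. The changes of Ankrd1 were 1.67 and 1.46 in the negative and positive set, those of Lox 2.06 and 2.02, those of Tgfb2 1.21 and 0.98, those of Trem2 1.64 and 1.62, and those of Serpina3n 2.23 and 2.74. Nppa was at 2.06 and 0.60 and Ltbp2 at 3.70 and 1.54, so their estimates differed between the sets by more than 1 on the log2 scale. The Sgcd change was 0.13 and -0.83.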

How the data were processed

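RNA-seq libraries of left ventricle were analysed from 9 samples, grouped by title. The deposited values are expected counts per gene, which the authors left unscaled between libraries. Per the submitters' processing notes, STAR, Partek and bcl2fastq were used with build mm10, without versions, and neither the counting rule nor its strand is recorded there. The 8 mitochondrial-like pseudogenes that hold 19.8% to 28.6% of a library's counts were kept.

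Counts were rounded, 15549 of 20634 genes passed filterByExpr (minimum count 10), and libraries were scaled by TMM. edgeR 4.0.16 (R 4.3.3) fitted genotype plus treatment with robust quasi-likelihood, and a 4-group model gave the interaction and the changes per treatment. Adjustment was by Benjamini-Hochberg, threshold 0.05, two-sided. SE is the log2 change divided by the square root of F. Residuals of same-numbered replicates correlated at -0.06 to 0.50. In a group of 2 libraries the residuals mirror each other, so these correlations cannot decide pairing, and none was assumed. Alternatives were DESeq2 1.42.0, limma-voom (limma 3.58.1), other filters and scaling, slope sets, relabelling and leave-one-out fits.

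The comparison, its members and the 42 gene lists (1036 entries tested) were chosen with earlier results of these data known. Genes named are Sgcd, the 15 largest rises and falls with a mean of at least 1 CPM, up to 3 calls per list, 8 fixed genes, the 3 smallest interaction p-values, and calls within 10 Mb of Sgcd. Genes named beyond this rule, the other calls of a list included, were chosen after their values were seen. On simulated counts with 200 changed genes, the genotype test recovered 87% of log2 changes of 1 and 99% of 2, with 6 false calls. The changed genes had a mean of at least 1 CPM, and the simulated libraries varied independently, without a slope split. These figures therefore describe such counts and need not hold for the real libraries.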

Additional observations from a re-analysis of the deposited data

Results flagged for a closer look

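In 14 of 188 tests of a named gene within its 4 WT or its 5 KO libraries, 1 library stood apart by more than Dixon's 95% limit on the gap to its nearest neighbour. This is 7.45%, and chance flags about 1 in 20 groups of independent, normally spread values. Each group here holds libraries of both treatments and the genes need not vary independently, so that rate need not hold. WT ifetroban replicate 1 was the library in 5 of the 14, above the other WT libraries, with Lgals3 at 4.52, Mmp19 at 3.11, Postn at 53.8, Tnc at 2.91 and Vcan at 23.1 CPM. All 5 are genes that rose in KO with their KO libraries higher still, which the choice of the named genes on these libraries largely fixed.

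KO ifetroban replicate 1, the library with conflicting treatment labels, was the one in another 5. It was above the other KO libraries for Cxcl5 (8.99 CPM), Fgr (4.21 CPM), Mmp19 (8.19 CPM) and Sprr1a (23.1 CPM) and below them for Col3a1 (306 CPM). WT vehicle replicate 1, whose Sgcd level lay in the KO range, stood apart in 3. It was above the other WT libraries for Pttg1 (64.8 CPM) and below them for Cyfip2 (173 CPM) and Armc2 (41.2 CPM). WT ifetroban replicate 2 was above the other WT libraries for Nppa (272 CPM).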

How the results depend on the processing

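Over all genes tested, 363 passed the threshold (321 rises, 42 falls). The DESeq2 Wald test called 896 (634 and 262), the positive-slope libraries alone gave 61 (53 and 8, with 46 of the 363 among the 61), and the negative-slope libraries alone gave 184 rises. Falls numbered 103 with KO ifetroban replicate 1 counted as vehicle, 112 with the slope set as a term, 24 for the mean of the genotype contrasts per treatment and 132 without both libraries in doubt, an alternative chosen after seeing the data. Leave-one-out fits gave 51 to 475 genes, 47 to 371 rises and 4 to 104 falls. A group of 2 that loses a library has 1 sample, which is assumed to vary like the others. The causes were not tested. Rises were 88.4% of calls and 70.8% by DESeq2, 76.3% with the slope term, 78.1% without WT vehicle replicate 1, 74.5% in the negative-slope libraries and 75.3% without the libraries in doubt.

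Samples were not taken to be paired by replicate number, and whether they were paired could not be decided. With a replicate block 550 genes passed, 110 of them falls.

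Leave-one-out fits moved some list medians. They lay from 0.91 to 1.30 for matricellular proteins, 0.053 to 0.17 for TGF-beta genes, -0.072 to 0.25 for Wnt genes, 0.10 to 0.46 for cardiac stress genes, -0.15 to -0.0020 for glucose use, -0.0033 to 0.083 for endothelial markers, 0.48 to 0.63 for fibroblast markers, -0.055 to 2.02 for skeletal muscle markers and -0.067 to 0.077 for the angiotensin system. They also moved for lists with few or no calls, from 0.11 to 0.78 for immediate early genes, -0.16 to 0.85 for erythroid and platelet markers, -0.13 to 0.68 for mesothelial, nerve and atrial markers, -0.14 to 0.34 for cell cycle genes and -0.13 to 0.12 for the respiratory chain. Among named genes, wide errors were found for F7, with an SE of 1.14 at a mean of 0.178 CPM. They were also found at higher levels, with 0.85 for Spp1 at 10.5 CPM and 0.71 for Timp1 at 19.1 CPM. Sv2c, at a mean of 1.08 CPM, had an SE of 0.31.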

Other observations

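Genes outside the lists, picked here after their values were seen and so given as a description, include regulators of transcription. Spi1, the master factor of myeloid cells, was at 3.25 to 5.39 CPM in WT and 7.75 to 13.6 CPM in KO (1.19 ± 0.22 SE; edgeR, adjusted p = 0.0231). Ikzf1, a lymphoid and myeloid factor, changed by 1.19 ± 0.22, Runx1 by 1.04 ± 0.20 and Cebpa by 0.69 ± 0.12 (SE; edgeR, adjusted p = 0.0217, 0.0274 and 0.0189). Sox9, a factor of cartilage and matrix-producing cells, was at 3.59 to 4.91 CPM in WT and 5.69 to 7.43 CPM in KO (0.74 ± 0.14 SE; edgeR, adjusted p = 0.0249). Aldh1a2, which makes retinoic acid, was at 2.25 to 3.85 CPM in WT and 9.80 to 34.1 CPM in KO (2.63 ± 0.36 SE; edgeR, adjusted p = 0.00709). Tnfrsf12a, the receptor of the cytokine TWEAK, was at 26.1 to 38.5 CPM in WT and 58.0 to 104 CPM in KO (1.30 ± 0.17 SE; edgeR, adjusted p = 0.00689), and Aldh1a2 and Tnfrsf12a passed in all 9 leave-one-out fits. Ikzf1 and Cebpa passed in 6 of the 9, Spi1 and Runx1 in 4 and Sox9 in 2, and all 5 lost the threshold without WT ifetroban replicate 2 or KO vehicle replicate 1.

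Some small falls, likewise picked after their values were seen and from no fixed list, are given gene by gene. Gpt and Gpt2, the alanine aminotransferases, changed by -0.57 ± 0.11 and -0.60 ± 0.11 (SE; edgeR, adjusted p = 0.027 and 0.0231). Dbt and Ivd, enzymes of branched-chain amino acid and leucine breakdown, changed by -0.42 ± 0.07 and -0.34 ± 0.08 (SE; edgeR, adjusted p = 0.0205 and 0.0495). Nampt, the NAD salvage enzyme, was at 189 to 224 CPM in WT and 130 to 159 CPM in KO (-0.47 ± 0.09 SE; edgeR, adjusted p = 0.0284). Asb10, Asb14 and Asb15, muscle-expressed ubiquitin ligase adaptors, changed by -0.48, -0.37 and -0.54 (edgeR, adjusted p = 0.0339, 0.045 and 0.0401). Mhrt, a transcript antisense to the myosin genes, changed by -0.43 ± 0.09 (SE; edgeR, adjusted p = 0.0334), and as the counting strand is not stated, reads of the sense genes could be among its counts. All of these falls lost the threshold without either WT ifetroban library or without KO vehicle replicate 1. Dbt passed in 6 of 9 leave-one-out fits, Gpt and Gpt2 in 4, Nampt, Asb10 and Asb15 in 3, Mhrt in 2, Ivd in 1 and Asb14 in 0.

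The remaining lists gave few calls. In lists of this size 0 calls is near the 2.33% over all genes. None passed among 19 circadian clock genes (median -0.22), 25 immediate early genes (median 0.21), 11 erythroid and platelet markers (median 0.27), 19 smooth muscle and pericyte markers (median 0.08) or 6 skeletal muscle markers (median 0.59). Without WT vehicle replicate 1, 2 immediate early genes rose. Of 35 cell cycle genes 1 fell, Pttg1, which lies near Sgcd (median 0.04). Of 31 unfolded protein, ATF4 and one-carbon genes 1 rose, Gdf15 (median 0.34), a share near that over all genes (3.23% against 2.06%). Of 31 antioxidant and NRF2 genes 2 rose (median 0.18), or 6.45% against 2.06% of all genes. They were Gpx3, which lies near Sgcd, and Cybb, also a pan-macrophage rise. The list had 5 rises without WT vehicle replicate 1 and none without WT ifetroban replicate 2 or KO vehicle replicate 1. Of 14 mesothelial, nerve and atrial markers 2 rose, Nppa and Krt18 (median 0.21), and of 6 adipocyte markers 1 (median 0.90). The adipocyte count was 0 in 7 of 9 leave-one-out fits, and the mesothelial, nerve and atrial count was 0 without either WT vehicle library, WT ifetroban replicate 1, KO vehicle replicate 1 or KO ifetroban replicate 1.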
